A study of Mus musculus with 6 samples.

Results

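Voltage-gated calcium channel genes were examined in the cerebellum of mice on a low-manganese (low-Mn) or a normal-manganese (normal-Mn) diet. The 10 genes are the pore-forming subunits Cacna1a, Cacna1b, Cacna1c, Cacna1d, Cacna1e, Cacna1g, Cacna1h and Cacna1i and the auxiliary subunits Cacna2d1 and Cacna2d2. They were taken by symbol from the deposited table, which holds 53715 mouse genes, and all 10 had enough counts to be tested among 16123 genes. The low-Mn diet held 0 ppm Mn by the labels and below 0.01 ppm by the methods, and the normal-Mn diet held 35 ppm. Each diet was fed for 2 weeks to 3 male wild-type C57BL/6 mice, bought at 4 weeks of age and called adult in the labels, with 1 cerebellum and 1 library of polyadenylated RNA per mouse. The methods call these biological replicates and a legend calls them technical. All mice were kept on a basal diet with 35 ppm Mn before the diets were assigned. If the libraries are technical replicates, p-values measure the spread between libraries of the same RNA.

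A voltage-gated calcium channel opens when the membrane depolarizes and lets calcium into the cell, where it triggers transmitter release, shapes firing and signals to the nucleus. The pore subunit sets the class of the channel. Cacna1c and Cacna1d form L-type channels, Cacna1a P/Q-type, Cacna1b N-type, Cacna1e R-type, and Cacna1g, Cacna1h and Cacna1i T-type channels, which open at lower voltages than the others. Alpha2delta subunits carry high-voltage channels to the cell surface and beta subunits help to fold and gate them. In the cerebellum, P/Q-type channels dominate the calcium current of Purkinje neurons, and mouse mutants of Cacna1a (tottering, leaner) and of Cacna2d2 (ducky) are ataxic.

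The expected counts of the libraries summed to between 14548336 and 17124327 on the low-Mn diet and between 18446701 and 21277469 on the normal-Mn diet. Normal-Mn replicate 2 stood apart from the other libraries of its diet. Pairs of libraries within a diet gave chi-square values, divided by their degrees of freedom, of 6.78 and 7.56 where this library took part, and of 3.57 to 3.93 in the other 4 pairs, so that no library was a copy of another. It had the lowest value of the 3 normal-Mn libraries in 8 of the 10 genes and the lowest of all 6 libraries in 5 of them, and the main results are therefore also given without it. The low-Mn columns of the table carry a replicate number alone, and were assigned to the low-Mn mice because the columns of the normal-Mn mice name their diet. Of 15 granule neuron and 15 Purkinje neuron markers, all were tested and summed to 6900 to 7078 and 12360 to 12840 CPM (counts per 1e6 counts of tested genes) in low-Mn libraries, against 6710 to 7154 and 11790 to 12630 CPM in normal-Mn libraries, and 3 of 15 markers of neighbouring hindbrain and midbrain reached the test.

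Cacna1c, Cacna1e and Cacna1i, which encode pores of an L-type, an R-type and a T-type channel, rose on the low-Mn diet by 0.34, 0.28 and 0.25 on the log2 scale. No member fell. Thus 3 of 10 members were higher by edgeR's quasi-likelihood test at an adjusted p under 0.05, where 0.416% of all tested genes were called higher, 0.18% lower and 0.595% in either direction. In the same 3 genes every low-Mn library lay above every normal-Mn library, which held for 8.79% of all tested genes, and in no member did every low-Mn library lie below, as in 8.32% of all tested genes. The median log2 fold change was 0.03 over the 10 members and -0.0025 over all tested genes. Above 0 were 7 of 10 members, among them Cacna1d at 0.0034, and 7931 of the 16123 tested genes. The median of the members was 0.0023 without normal-Mn replicate 2 and 0.08 without low-Mn replicate 1, the lowest and highest values with 1 library left out, and 5 to 8 members were then above 0. Results of these libraries were known when the members were chosen, so these counts are a description of the family. In whole tissue, more cells of a type and more RNA per cell cannot be told apart.

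**Figure D1:**
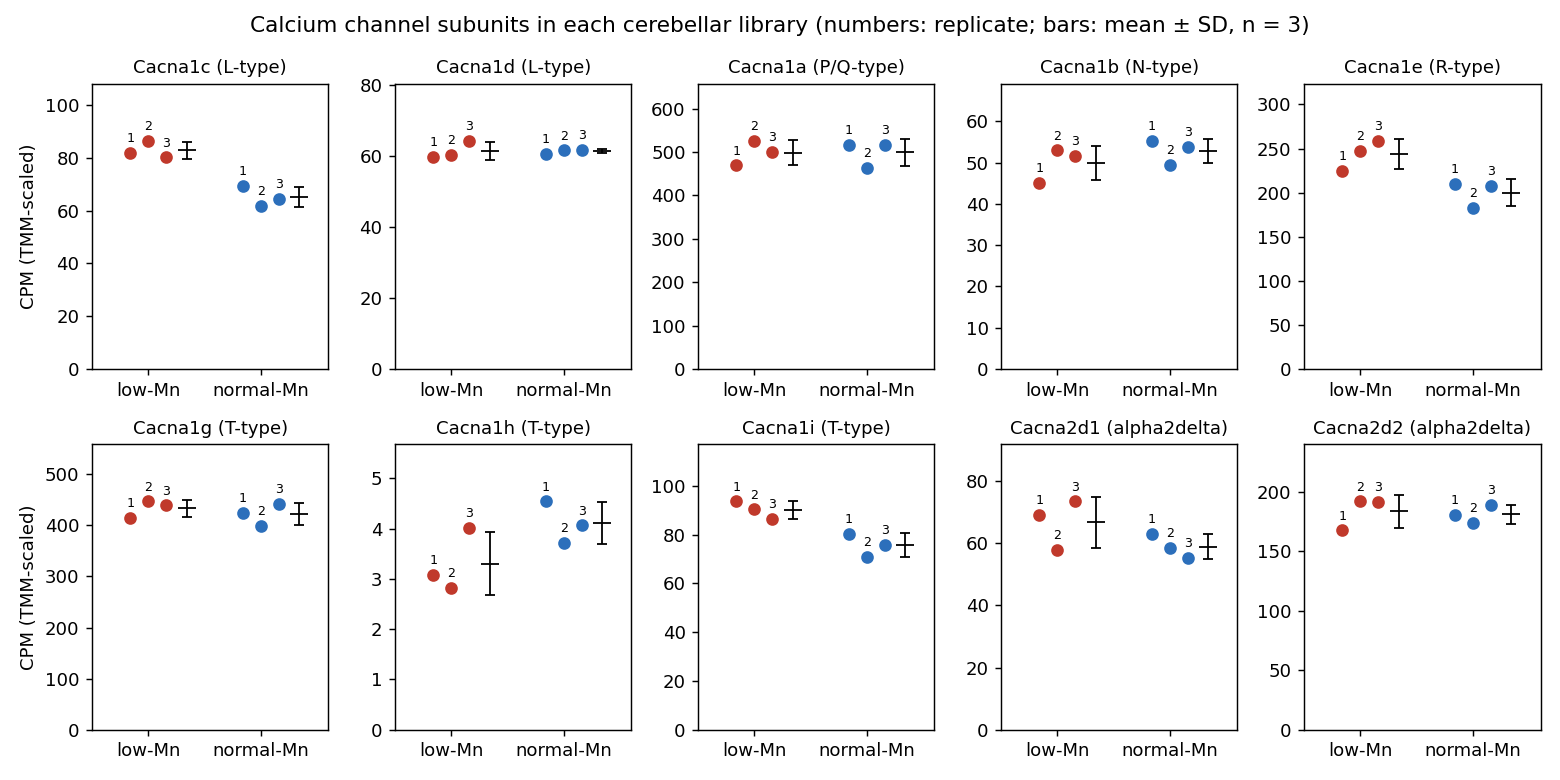
CPM of each of the 10 subunit genes (y axis, TMM-scaled, each axis from 0) in 3 low-Mn libraries (red) and 3 normal-Mn libraries (blue), numbered by replicate, with bars for mean ± SD. The low-Mn and normal-Mn points are apart in Cacna1c, Cacna1e and Cacna1i and overlap in the other 7 genes.

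Of the L-type pair, Cacna1c was higher on the low-Mn diet and Cacna1d did not pass the test. Cacna1c (ENSMUSG00000051331, chromosome 6, 118587240 to 119196418, GRCm38, minus strand) encodes the main L-type pore of heart and brain. It had a CPM of 82.0, 86.5 and 80.2 in low-Mn replicates 1 to 3, against 69.2, 61.9 and 64.6 in normal-Mn replicates 1 to 3. The lowest low-Mn library was thus above the highest normal-Mn library. The means were 82.9 ± 3.27 CPM in low-Mn mice, against 65.2 ± 3.71 CPM in normal-Mn mice (SD, n = 3 each). Its log2 fold change was 0.34 (SE 0.0572, 95% interval 0.23 to 0.46, edgeR adjusted p = 0.00607). Cacna1c ranked 19 by p among all tested genes and rested on 1192 to 1479 expected counts per library. It passed in 18 of 18 alternative fits, including each of 6 that left out 1 library, with log2 fold changes of 0.31 to 0.39 and an adjusted p of at most 0.0455. Without normal-Mn replicate 2 its value was 0.31 (edgeR adjusted p = 0.0283).

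Cacna1d (ENSMUSG00000015968, chromosome 14, 30039939 to 30491455, minus strand) encodes the L-type pore that opens at more negative voltages and serves pacemaking and hearing. Its CPM was 59.8, 60.4 and 64.4 in low-Mn libraries and 60.7, 61.7 and 61.8 in normal-Mn libraries. The diets overlapped, and the log2 fold change was 0.0034 with a 95% interval of -0.11 to 0.12 (edgeR adjusted p = 0.987). Of its exons, 4.67% overlap Chdh on the opposite strand, the largest such overlap among the 10 members.

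Among the P/Q-, N- and R-type pores, the R-type gene Cacna1e rose, while the more abundant Cacna1a did not pass. Cacna1e (ENSMUSG00000004110, chromosome 1, 154390731 to 154884501, minus strand) encodes the pore of channels that contribute to dendritic calcium entry and to transmitter release. It had a CPM of 225, 248 and 259 in low-Mn libraries, against 210, 182 and 208 in normal-Mn libraries. Low-Mn replicate 1 came close to the normal-Mn mice, and normal-Mn replicate 2 lay furthest below. The means were 244 ± 17.3 CPM in low-Mn mice, against 200.1 ± 15.5 CPM in normal-Mn mice (SD, n = 3 each). On the log2 scale the change was 0.28 (SE 0.0576, 95% interval 0.16 to 0.41, edgeR adjusted p = 0.028). The call ended without normal-Mn replicate 2 (0.22, adjusted p = 0.109), without low-Mn replicate 2 (0.27, adjusted p = 0.112) and without low-Mn replicate 3 (0.24, adjusted p = 0.105, all from edgeR), and it stood in the other 15 of 18 alternatives.

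Cacna1a (ENSMUSG00000034656, chromosome 8, 84388440 to 84640246, plus strand) encodes the P/Q-type pore. It had 469, 526 and 500.0 CPM in low-Mn libraries and 518, 464 and 517 CPM in normal-Mn libraries. The spread within each diet exceeded the difference between the diets, and the log2 fold change was -0.0034 (95% interval -0.11 to 0.10, edgeR adjusted p = 0.985). With 7659 to 11057 expected counts per library it was the most deeply counted member. Cacna1b (ENSMUSG00000004113, chromosome 2, 24603887 to 24763152, minus strand), the N-type pore of presynaptic terminals, had 45.2, 53.0 and 51.7 CPM in low-Mn libraries and 55.3, 49.5 and 53.7 CPM in normal-Mn libraries. These overlapped as well, with a log2 fold change of -0.08 (95% interval -0.23 to 0.06, edgeR adjusted p = 0.691).

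Among the T-type pores, Cacna1i rose by a small margin and the abundant Cacna1g did not pass. Cacna1i (ENSMUSG00000022416, chromosome 15, 80287238 to 80398279, plus strand) encodes the T-type pore with the slowest gating. It had a CPM of 93.6, 90.3 and 86.3 in low-Mn libraries, against 80.4, 70.8 and 75.8 in normal-Mn libraries. The libraries of the diets did not overlap, although low-Mn replicate 3 and normal-Mn replicate 1 were close. The means were 90.1 ± 3.65 CPM in low-Mn mice, against 75.7 ± 4.81 CPM in normal-Mn mice (SD, n = 3 each). The estimated log2 change was 0.25 (SE 0.0571, 95% interval 0.13 to 0.37, edgeR adjusted p = 0.0479). The p lay just inside the threshold, and the gene ranked 93 among 96 genes called. Of the 6 fits that left out 1 library, 1 kept the call, that without normal-Mn replicate 1. In the other 5, log2 fold changes were 0.20 to 0.28 and adjusted p ran up to 0.203, the value without normal-Mn replicate 2. The call also ended with upper quartile scaling (adjusted p = 0.0584), under limma-voom (0.059) and under DESeq2 when independent filtering was off (0.061), at log2 fold changes of 0.24 to 0.25.

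Cacna1g (ENSMUSG00000020866, chromosome 11, 94408391 to 94474198, minus strand) encodes the T-type pore that supports burst firing in Purkinje and deep nuclear neurons. Its CPM was 414, 447 and 439 in low-Mn libraries and 424, 399.7 and 443 in normal-Mn libraries, which overlapped. Its log2 fold change was 0.04 (95% interval -0.06 to 0.13, edgeR adjusted p = 0.810). Cacna1h (ENSMUSG00000024112, chromosome 17, 25374285 to 25433783, minus strand), the T-type pore best known from sensory neurons and adrenal gland, was scarce at 3.08, 2.82 and 4.01 CPM in low-Mn libraries and 4.54, 3.71 and 4.06 CPM in normal-Mn libraries. It rested on 41 to 97 expected counts, and its log2 fold change of -0.31 had a 95% interval of -0.77 to 0.15 (edgeR adjusted p = 0.624). A change of the size seen in Cacna1i was not detectable at this depth.

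Neither alpha2delta gene passed the test. Cacna2d1 (ENSMUSG00000040118, chromosome 5, 15934691 to 16374511, plus strand), whose protein binds gabapentin, had 69.0, 57.7 and 73.5 CPM in low-Mn libraries and 63.0, 58.4 and 55.2 CPM in normal-Mn libraries. Low-Mn replicate 2 lay among the normal-Mn libraries and the other 2 above them. On the log2 scale the change was 0.18 (95% interval 0.03 to 0.34, edgeR adjusted p = 0.320), and its unadjusted p of 0.0243 made it the 1 member besides the 3 called with p under 0.05 before adjustment, which 6.54% of all tested genes reached in the higher direction. Cacna2d2 (ENSMUSG00000010066, chromosome 9, 107399612 to 107529343, plus strand), the main alpha2delta subunit of Purkinje neurons, had 168, 192 and 192 CPM in low-Mn libraries and 181, 174 and 189 CPM in normal-Mn libraries. Its libraries overlapped, at a log2 fold change of 0.02 (95% interval -0.09 to 0.13, edgeR adjusted p = 0.925).

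Promoter windows of RefSeq (GRCm38.p6), from 250 bases before to 50 bases after an annotated start, were available for 7 of the 10 members in 10 windows. A window of each gene that rose is shown. Capitals mark each match, on either strand, to the GC box GGGCGG, bound by Sp factors, to TGACG, the core of the cyclic AMP response element, to the full element TGACGTCA, or to the E-box CACGTG. The Cacna1c window is chr6:119108446-119108745, that of Cacna1e chr1:154725871-154726170, both on the minus strand, and that of Cacna1i chr15:80286988-80287287 on the plus strand.
Cacna1c: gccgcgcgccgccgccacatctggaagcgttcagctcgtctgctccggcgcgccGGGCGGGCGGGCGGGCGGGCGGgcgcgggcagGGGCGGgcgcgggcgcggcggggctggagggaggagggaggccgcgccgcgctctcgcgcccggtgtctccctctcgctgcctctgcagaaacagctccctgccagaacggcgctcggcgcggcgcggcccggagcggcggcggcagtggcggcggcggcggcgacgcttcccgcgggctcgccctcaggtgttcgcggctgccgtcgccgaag
Cacna1e: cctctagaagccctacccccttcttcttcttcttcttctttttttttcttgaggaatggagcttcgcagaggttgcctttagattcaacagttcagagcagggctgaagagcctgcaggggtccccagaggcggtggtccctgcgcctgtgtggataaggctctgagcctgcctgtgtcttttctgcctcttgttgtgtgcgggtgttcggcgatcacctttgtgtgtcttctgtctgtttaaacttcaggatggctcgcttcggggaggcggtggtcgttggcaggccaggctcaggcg
Cacna1i: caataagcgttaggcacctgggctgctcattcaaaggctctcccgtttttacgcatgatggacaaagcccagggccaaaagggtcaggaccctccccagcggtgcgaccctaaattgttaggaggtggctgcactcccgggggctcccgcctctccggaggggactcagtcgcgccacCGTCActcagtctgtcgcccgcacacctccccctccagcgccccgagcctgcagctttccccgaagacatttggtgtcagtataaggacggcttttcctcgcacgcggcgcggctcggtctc
The windows of the 3 genes differed. The Cacna1c window had a GC content of 81.3% and 6 GC boxes, overlapping matches counted, the Cacna1e window 55.3% and no match, and the Cacna1i window 62.7% and 1 TGACG. Cacna1c has 2 further RefSeq windows, of which the one furthest upstream (chr6:119196360-119196659) holds 1 TGACG and the other no match. Of 32851 promoter windows of this length, 35.7% hold a GC box, 20.8% TGACG, 1.8% TGACGTCA and 7.2% CACGTG. Among members that did not pass the test, a CpG-rich window of Cacna1d also holds 6 GC boxes. The windows of Cacna2d1, Cacna1b and Cacna2d2 hold 7, 3 and 1, and those of Cacna2d1 and Cacna1b also hold 1 TGACG each. Counts per gene do not tell which start was used.

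Compared per length, the P/Q-type pore Cacna1a and the T-type pore Cacna1g had the highest levels of the 10 members. Length-scaled abundance (TPM), computed from the expected counts and the merged exon length of GENCODE M21, averaged 149.9 for Cacna1a and 144.7 for Cacna1g over the 6 libraries, followed by Cacna2d2 at 78.8, Cacna1e at 30.2, Cacna1i at 28.8, Cacna1b at 17.7, Cacna2d1 at 17.3, Cacna1d at 16.7, Cacna1c at 11.99 and Cacna1h at 1.30. The ranges of neighbours overlapped between Cacna1a and Cacna1g, between Cacna1e and Cacna1i, and among Cacna1b, Cacna2d1 and Cacna1d, while every other step of the order separated all 6 libraries. Within a library, Cacna1a exceeded Cacna1g in 6 of 6 cases, Cacna1e exceeded Cacna1i in 5 of 6 and Cacna1b exceeded Cacna2d1 in 4 of 6. The genes that rose were thus of middle or low rank. Of the summed TPM of the 8 pore genes, Cacna1e took 8.09% in low-Mn mice and 6.91% in normal-Mn mice, Cacna1i took 7.67% in low-Mn mice and 6.69% in normal-Mn mice, and Cacna1a took 36.6% in low-Mn mice and 38.1% in normal-Mn mice. With the longest transcript as length, Cacna1b stood in place 9 instead of 6, and 6 of 10 members kept their place.

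**Figure D2:**
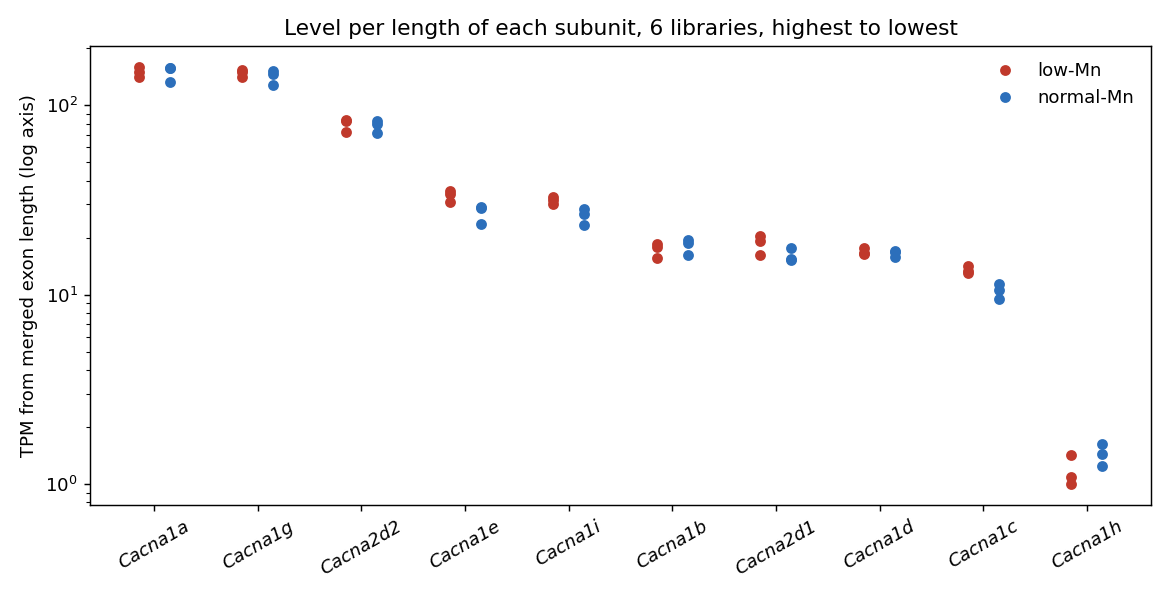
TPM of each subunit gene per library (y axis, log scale, merged exon length) in 3 low-Mn (red) and 3 normal-Mn (blue) libraries, ordered from highest to lowest mean. Cacna1a and Cacna1g average 149.9 and 144.7 TPM and Cacna1h 1.30 TPM, and the diets are apart in Cacna1e, Cacna1i and Cacna1c.

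Summed over classes, L-type pores amounted to 29.6, 30.7 and 30.6 TPM in low-Mn libraries, against 28.2, 25.4 and 27.6 TPM in normal-Mn libraries, and these did not overlap. Cacna1d, the larger term of this sum, overlapped between the diets, so the separation largely repeats the rise of Cacna1c. P/Q-, N- and R-type pores summed to 188, 212 and 204 TPM in low-Mn libraries and 207, 172 and 205 TPM in normal-Mn libraries. T-type pores summed to 175, 185 and 181 TPM in low-Mn libraries and 176, 153 and 180 TPM in normal-Mn libraries. The sums of both these classes overlapped between the diets, and Cacna1a and Cacna1g were the largest terms in them. The 8 pore genes together gave 412 ± 18.5 TPM in low-Mn mice, against 391 ± 35.8 TPM in normal-Mn mice (SD, n = 3 each). The alpha2delta pair gave 98.3 ± 5.94 TPM in low-Mn mice and 93.8 ± 6.57 TPM in normal-Mn mice. The libraries of the diets overlapped in both sums. Normal-Mn replicate 2 was the lowest library in both. Its pore sum was 349.6 TPM, against 411.1 and 412.3 TPM in normal-Mn replicates 1 and 3. Its alpha2delta sum was 86.3 TPM, against 97.1 and 98.2 TPM. TPM in this library was low relative to CPM, so these gaps depend on the scale. Cacna1d had 61.7 CPM there, against 60.7 CPM in normal-Mn replicate 1, but 15.9 TPM, against 16.8 TPM.

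Ratios of 2 subunits within a library do not depend on how libraries are scaled. The log2 ratio of Cacna1c over Cacna1d was 0.46, 0.52 and 0.32 in low-Mn libraries and 0.19, 0.0056 and 0.06 in normal-Mn libraries, a difference of 0.34. That of Cacna1e over Cacna1a was -1.06, -1.09 and -0.95 in low-Mn libraries and -1.30, -1.35 and -1.31 in normal-Mn libraries, a difference of 0.29 with the tightest normal-Mn group of the 4 pairs (SD 0.0240). That of Cacna1i over Cacna1g was -2.15, -2.31 and -2.35 in low-Mn libraries and -2.40, -2.50 and -2.55 in normal-Mn libraries, a difference of 0.21. In these 3 pairs the diets did not overlap (p = 0.1 in a two-sided exact permutation test and 0.133 adjusted over the 4 pairs). Since 0.1 is the lowest p this design can give, none could pass 0.05. In each of these 3 pairs a called gene stands over a member that did not pass, in the same libraries. Their differences thus largely repeat the fold changes given above and add no separate support. The ratio of Cacna2d1 over Cacna2d2 differed by 0.16 and overlapped (exact permutation p = 0.4). Without normal-Mn replicate 2 the differences of the first 3 pairs were 0.30, 0.28 and 0.21.

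**Figure D3:**
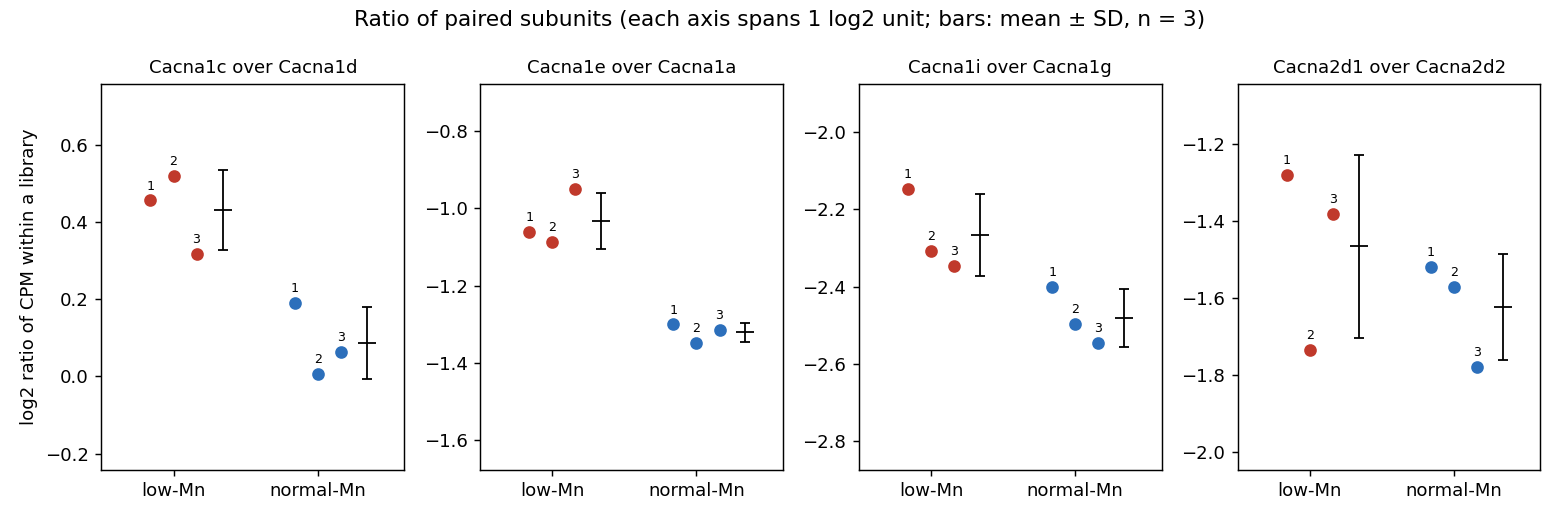
Log2 ratio of the CPM of 2 subunit genes within each library (y axes, each spanning 1 log2 unit) for 3 low-Mn (red) and 3 normal-Mn (blue) libraries, numbered by replicate, with bars for mean ± SD. Low-Mn points lie above all normal-Mn points for Cacna1c over Cacna1d, Cacna1e over Cacna1a and Cacna1i over Cacna1g, by 0.34, 0.29 and 0.21 on average, and overlap for Cacna2d1 over Cacna2d2.

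The members also differed in how they varied among the mice. As the deviation of log2 CPM from a gene's mean over the 6 libraries, Cacna1a was closest to Cacna1g (root mean square difference 0.0351), and Cacna2d2 was also closest to Cacna1g (0.0356). In these 3 genes low-Mn replicate 2 was the highest library. Cacna1c and Cacna1i were closest to each other (0.0612), and Cacna1e was closest to Cacna1c (0.0853). These deviations include the diet difference, which the 3 called genes share. Their closeness thus partly repeats their calls and adds no separate support. Normal-Mn replicate 2 was the lowest of 6 libraries in Cacna1c, Cacna1e and Cacna1i, and also in Cacna1a and Cacna1g. Among 11676 other genes averaging at least 100 counts, the profiles most like that of Cacna1c, whose own root mean square deviation was 0.182, were those of Nme7, Bdnf and Zbtb11 (differences of 0.0211, 0.0406 and 0.0412). For Cacna1e they were Lurap1, Tnik and Ago3 (0.0310 to 0.0434), and for Cacna1i Taf4, Cbx1 and Gpr155 (0.0236 to 0.0288). These genes were chosen on the same 6 libraries, diet difference included.

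Other subunits of the same channels did not pass the test. Of 16 such genes, 13 were tested, none passed by edgeR, limma-voom or either DESeq2 fit, and none had an unadjusted p under 0.05 by edgeR. Their median log2 fold change was -0.04, with 2 of 13 above 0, where 7931 of the 16123 tested genes were above 0. Cacnb4, the main beta subunit of the cerebellum and the gene of the lethargic mouse, had 411 ± 23.5 CPM in low-Mn mice, against 409.8 ± 20.0 CPM in normal-Mn mice (SD, n = 3 each). The estimated log2 change was 0.0047 (95% interval -0.10 to 0.11). It is uncertain, because 15.99% of its exons overlap A430018G15Rik on the opposite strand and whether reads were counted by strand was not stated in the methods. The other beta subunits Cacnb1, Cacnb2 and Cacnb3 had log2 fold changes of 0.14, -0.02 and -0.04 (edgeR adjusted p = 0.55 to 0.942), and every low-Mn library of Cacnb1 (21.7 to 22.3 CPM) lay above every normal-Mn library (18.8 to 21.2 CPM).

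The third alpha2delta gene, Cacna2d3, spans 816.9 kb and was at 48.6 ± 1.38 CPM in low-Mn mice, against 48.7 ± 2.56 CPM in normal-Mn mice (SD, n = 3 each). Its log2 fold change was -0.0028, and that of the scarce Cacna2d4 was -0.23 (edgeR adjusted p = 0.782). Of the gamma subunits, most of which act as partners of AMPA receptors, Cacng2, the gene of the stargazer mouse, had -0.02. Cacng5 and Cacng7 had -0.10 and -0.04, and each low-Mn library lay below each normal-Mn library in both (edgeR adjusted p = 0.470 and 0.725). Cacnb2 and Cacng2 are uncertain in the same way as Cacnb4, with 7.32% and 5.86% of their exons under genes of the other strand. Cacng3, Cacng4 and Cacng8 had -0.0074, -0.05 and -0.09. The skeletal muscle pore Cacna1s, at 1.82 CPM in low-Mn mice, against 2.43 CPM in normal-Mn mice, had -0.41 (edgeR adjusted p = 0.623) with no overlap between the diets, and is uncertain, since 19.98% of its exons overlap Gm37759 on the opposite strand. Cacna1f, the retinal L-type pore, Cacng1 and Cacng6 had at most 9 expected counts in a library and were not tested.

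**Figure D4:**
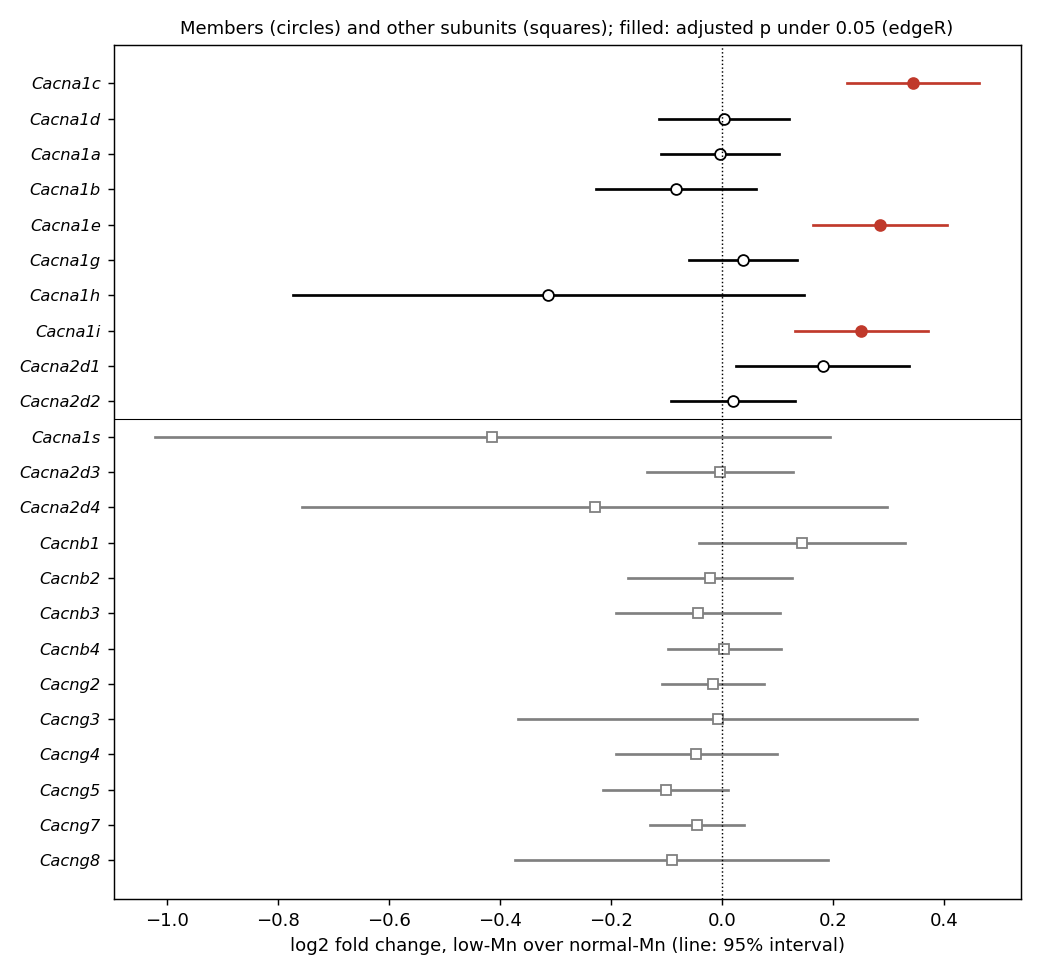
Log2 ratio of low-Mn to normal-Mn from edgeR (x axis) for the 10 members (circles) and 13 other tested channel subunits (squares), with 95% intervals as lines and filled symbols for an adjusted p under 0.05. Cacna1c, Cacna1e and Cacna1i lie at 0.34, 0.28 and 0.25 with intervals above 0, and none of the squares is filled. The intervals are not adjusted for the number of genes, and that of the unfilled Cacna2d1 (0.03 to 0.34) is also above 0.

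Genes that act with the channels or downstream of them were not called by edgeR. Of 40 partners and regulators, such as active zone proteins, calmodulins and small GTPases, 37 were tested and none passed, with 7 higher and 3 lower at an unadjusted p under 0.05 and none by limma-voom or DESeq2. Of the 16123 genes tested, 1054 (6.54%) were higher and 900 lower at that p. The smallest p belonged to Cbarp, a suppressor of channel activity that binds the beta subunit (log2 fold change -0.15, adjusted p = 0.233), Tspoap1, which couples channels to the active zone (0.14, adjusted p = 0.233), and Rrad, a GTPase that inhibits L-type channels (-0.89, adjusted p = 0.239, all from edgeR). In each of these the diets did not overlap, and Rrad was at 1.49 CPM in low-Mn mice, against 2.74 CPM in normal-Mn mice. Over all tested genes, every low-Mn library lay above every normal-Mn library in 8.79% and below in 8.32%. The median of this list was 0.01.

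Of 32 genes of calcium handling, none passed by edgeR, 2 were higher and 1 lower at an unadjusted p under 0.05, and 1 was called by DESeq2 with default settings and none by limma-voom. Over all tested genes, 6.54% were higher and 900 of 16123 lower at that p. Ryr2, a calcium release channel of the endoplasmic reticulum, came closest with 183 ± 6.23 CPM in low-Mn mice, against 159.9 ± 8.69 CPM in normal-Mn mice (SD, n = 3 each). Its log2 fold change was 0.20 (edgeR adjusted p = 0.0761). The sodium-calcium exchangers Slc8a3 and Slc8a2 had -0.20 and 0.12 (edgeR adjusted p = 0.290 and 0.322). The median of the list was -0.0064.

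Of 37 calcium-dependent kinases, phosphatase genes and transcription factors, 36 were tested and none passed by edgeR, limma-voom or DESeq2. At an unadjusted p under 0.05, 9 were higher and 2 lower, where 6.54% of all tested genes were higher and 900 of 16123 lower. The activity-induced factors Npas4 and Fos came closest to the threshold. Npas4 was at 3.72 ± 1.96 CPM in low-Mn mice, against 1.27 ± 0.615 CPM in normal-Mn mice (SD, n = 3 each). On the log2 scale the change was 1.55 (edgeR adjusted p = 0.0756). Fos was at 15.4 ± 8.17 CPM in low-Mn mice, against 6.76 ± 3.46 CPM in normal-Mn mice (SD, n = 3 each), with overlapping diets (1.17, edgeR adjusted p = 0.0871). Bdnf, a neurotrophin whose promoter responds to calcium entry, had 0.37 (edgeR adjusted p = 0.159), with no overlap between the diets. The median of the list was 0.02.

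Markers of some other cell types moved with the diet, where 0.18% of all tested genes were called lower. At an unadjusted p under 0.05, 900 of the 16123 tested genes were lower. Every low-Mn library lay below every normal-Mn library in 8.32% of all tested genes. Oligodendrocyte and myelin markers were lower nearly throughout, with 1 of 20 log2 fold changes above 0 and a median of -0.13. In 14 of 20 the unadjusted p was under 0.05, and in 11 every low-Mn library lay below every normal-Mn library. After adjustment 2 passed, 1 of them the glial connexin gene Gjc3 (-0.24, edgeR adjusted p = 0.0403). Their summed level was 8678 to 9156 CPM in low-Mn libraries and 9655 to 10640 CPM in normal-Mn libraries.

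Of 15 markers of choroid plexus and ependyma, 4 fell and 9 were lower at an unadjusted p under 0.05, with a median of -0.25. Those with the smallest p were Kl, a co-receptor for FGF23, and Ace, the angiotensin-converting enzyme (-0.51 and -0.37, edgeR adjusted p = 0.00183 and 0.01004). Of 15 meningeal markers, 2 fell and 5 were lower at an unadjusted p under 0.05. They were Fn1, the matrix protein fibronectin, and Igf2, a growth factor (-0.41 and -0.26, edgeR adjusted p = 0.00984 and 0.0433). The meningeal median was -0.15, but -0.28 without low-Mn replicate 1 and -0.06 without low-Mn replicate 2. The summed levels of both lists overlapped between the diets. Choroid plexus and ependyma markers summed to 2347 to 2893 CPM in low-Mn libraries and 2713 to 3283 CPM in normal-Mn libraries. Meningeal markers summed to 1489 to 1790 CPM in low-Mn libraries and 1626 to 1832 CPM in normal-Mn libraries.

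Granule neuron markers had a median of 0.0087, and Kcnd2, a potassium channel, was higher (0.22, edgeR adjusted p = 0.0433). Next by p was the transcription factor Neurod1 (0.18, edgeR adjusted p = 0.126). Purkinje neuron markers had a median of 0.02, with none called by edgeR, limma-voom or DESeq2 and none at an unadjusted p under 0.05. The smallest p there belonged to the glutamate transporter Slc1a6 and to Rgs8, a regulator of G proteins (0.09 and 0.08, edgeR adjusted p = 0.483 and 0.536). No marker of any of these lists was at 0 in all libraries, and their part in the calcium channel results was not tested.

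The members differ in length. Of the 10, 5 span over 200 kb, among them Cacna1c with 609.2 kb and Cacna1e with 493.8 kb, while Cacna1i spans 111.0 kb. Of the 938 tested genes over 200 kb, 11 (1.17%) were called higher and 2 lower, a higher share of rises than the 0.416% of all tested genes and than the 0.254% to 0.602% of the shorter classes. Cacna1c and Cacna1e are themselves among these 11. The median log2 fold change of the 938 genes was -0.03, and 40.0% of them were above 0. With a smooth trend on genomic span removed from each library, Cacna1c, Cacna1e and Cacna1i also had an adjusted p under 0.05. The part of gene length in these results was not tested. None of the 10 members overlapped another gene over 5% of its exons or shared 5% of its 50-base words with one.

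**Figure D5:**
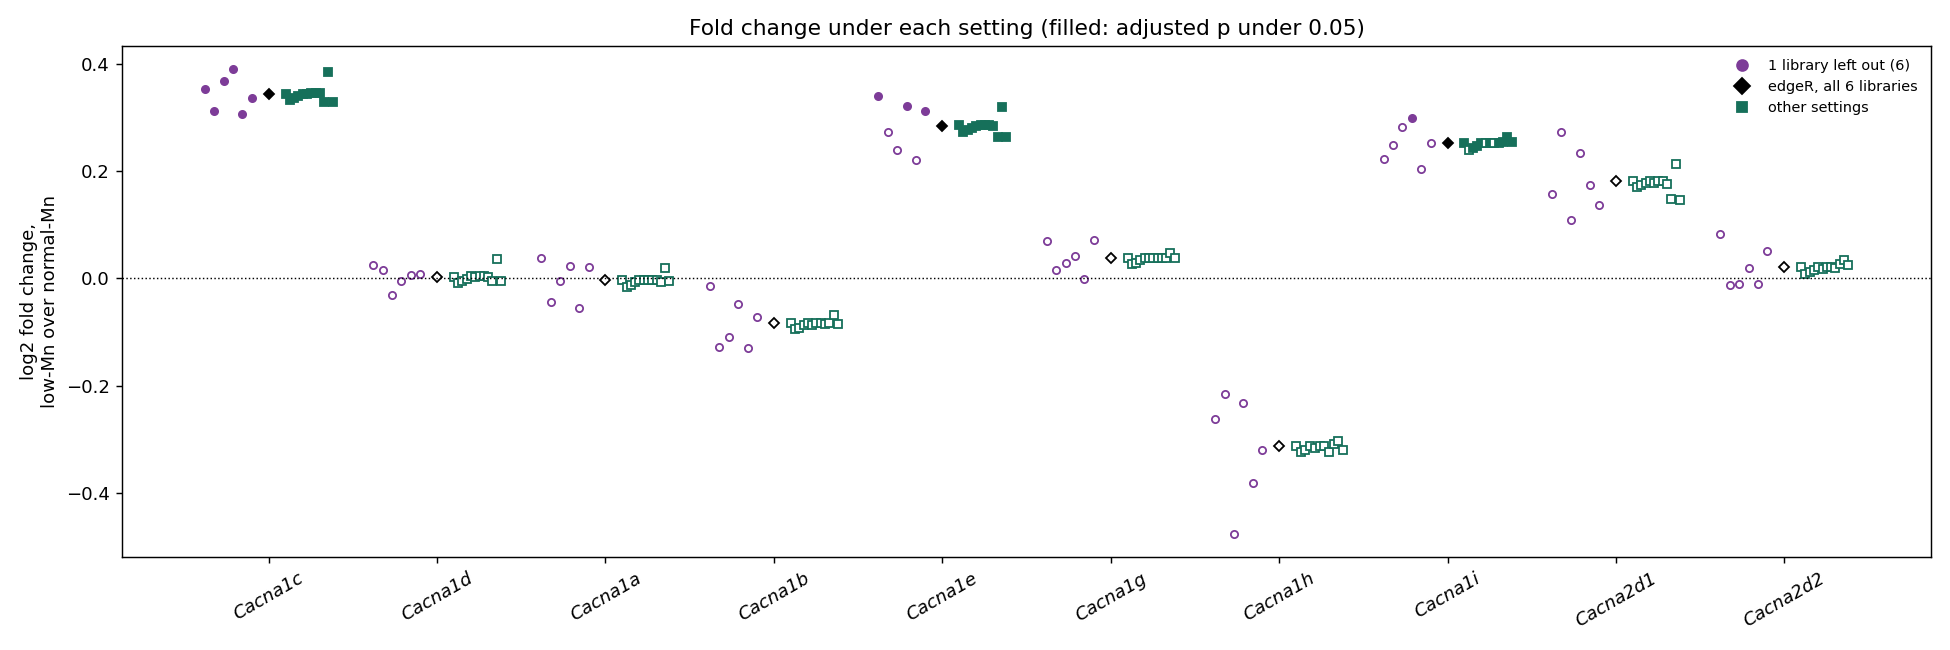
Log2 ratio of low-Mn to normal-Mn (y axis), of the 10 subunit genes from edgeR on all 6 libraries (diamonds), from 6 fits that each leave out 1 library (circles) and from the other settings (squares), filled where the adjusted p was under 0.05. Cacna1c is filled throughout, with values of 0.31 to 0.39, while Cacna1e loses its call in 3 and Cacna1i in 5 of the 6 fits with a library left out.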

How the data were processed

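RNA-seq was done on cerebella of 3 low-Mn and 3 normal-Mn mice, grouped as the labels give them. The authors sequenced oligo-dT libraries on the NovaSeq platform and aligned reads with STAR to files from Ensembl. FastQC, RSEM and DESeq2 and the build mm10 appear in the submitters' processing notes (no version is given in the sources used here). What the authors deposited are unnormalized expected counts for each gene, in which RSEM shares a read among the genes it could come from. All 6 sample columns were used. The 92 spike-in entries were 0 and were left out. Of 53715 genes, 53620 matched GENCODE M21 (GRCm38), from which symbols, positions and lengths came, though 51464 had the same ID version, so the annotation release differs in part.

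Expected counts were rounded, kept by filterByExpr (minimum count 10, total 15), scaled by TMM (0.989 to 1.01) and tested with glmQLFit and glmQLFTest of edgeR 4.0.16 in R 4.3.3, adjusting p over 16123 genes by Benjamini-Hochberg with 0.05 as threshold. CPM refers to counts of tested genes. Standard errors and 95% intervals belong to the log2 ratio of low-Mn to normal-Mn. Alternatives used RLE or upper quartile scaling, no filter or a mean of at least 100 counts, counts left unrounded, DESeq2 1.42.0, limma-voom (limma 3.58.1), the replicate number as a block, trends on exonic length and GC or on span removed (splines, 4 degrees of freedom) and each library left out. For profiles, log2 CPM took a prior count of 2. Figures used matplotlib 3.10.9 in Python 3.11.15. The edgeR test was first tested on simulated counts.

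The members, the gene lists and the rule for genes named were chosen with earlier results of these data known. Named are all members, all tested other subunits, genes of further lists that passed or had the 3 smallest p, up to 2 genes with the smallest p per marker list, and the 3 genes most like each called member. The values of 1 marker gene are not reported here.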

Additional observations from a re-analysis of the deposited data

How the results depend on the processing

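The direction of Cacna1c, Cacna1e and Cacna1i was kept in all 18 alternatives. The number of members called was 3, and it was 2 with upper quartile scaling, limma-voom and DESeq2 without independent filtering, and 1 to 3 when 1 library was left out. Without low-Mn replicate 2, low-Mn replicate 3 or normal-Mn replicate 2 it was 1, and that gene was Cacna1c. Other channel subunits gave 0 calls in every alternative. Over all genes, 96 were called, 424 with no filter on low counts, 63 with limma-voom, 167 with a length and GC trend removed, and 37 to 93 with 1 library left out (47 and 37 when low-Mn replicate 1 or 2 was dropped, 45 when normal-Mn replicate 2 was). Of the 96, 67 were higher and 29 lower, against 53 and 37 with upper quartile scaling. By the longest transcript, 6 of 10 members kept their place in the order of levels. The log2 differences of the 4 subunit ratios kept their sign. Their lowest and highest values with 1 library left out were 0.30 and 0.40 for Cacna1c over Cacna1d, 0.25 and 0.32 for Cacna1e over Cacna1a, 0.15 and 0.25 for Cacna1i over Cacna1g and 0.06 and 0.29 for Cacna2d1 over Cacna2d2. Deviations of same-numbered mice had correlations of -0.024 to 0.036, against -0.049 to 0.019 for mice of different numbers. These values do not settle whether the replicate numbers pair the mice. With the replicate block, 3 members, 0 other subunits and 128 genes were called, and 186 genes with the block and the length and GC trend removed. Depth limits Cacna1h, the scarcest member, which the average of 100 counts removed. The causes were not tested.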

Other observations

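Voltage-gated sodium channels, which drive the spikes that open these calcium channels, were described from a list of 15 genes, of which 11 were tested. None passed by edgeR, limma-voom or DESeq2, and 2 were higher at an unadjusted p under 0.05, with a median log2 fold change of 0.02. Over all tested genes, 6.54% were higher at that p. Scn2a, a pore of unmyelinated axons, had 314 ± 16.2 CPM in low-Mn mice, against 289 ± 15.3 CPM in normal-Mn mice (SD, n = 3 each), with no overlap (log2 fold change 0.12, adjusted p = 0.317 from edgeR). Scn8a, the main pore of the axon initial segment, had 291 ± 14.97 CPM in low-Mn mice, against 269.7 ± 17.9 CPM in normal-Mn mice (SD, n = 3 each), with overlapping diets (0.11, adjusted p = 0.405 from edgeR). Scn3a, a mainly embryonic pore, was at 2.07 CPM in low-Mn mice, against 2.99 CPM in normal-Mn mice (-0.53, adjusted p = 0.440 from edgeR).

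Among further marker lists, 15 astrocyte, 15 endothelial and mural, and 15 microglia and macrophage markers had medians of -0.06, 0.08 and -0.11, and none passed by edgeR. At an unadjusted p under 0.05, 4 astrocyte markers were lower, 2 endothelial or mural markers higher and 1 lower, and 3 microglia markers lower. Over all 16123 tested genes, 1054 were higher and 900 lower at that p. DESeq2 with default settings called 1 astrocyte marker, limma-voom called none, and neither tool called a marker of the other 2 lists. Of 16 markers of inhibitory interneurons and unipolar brush cells none passed by edgeR or limma-voom, 1 was higher and 3 lower at an unadjusted p under 0.05, and DESeq2 with default settings called 2. The smallest p of these lists belonged to S100b of astrocytes (-0.16, edgeR adjusted p = 0.109), Rgs5 of mural cells (0.22, edgeR adjusted p = 0.0969), Csf1r of microglia (-0.21, edgeR adjusted p = 0.201) and Kit of interneurons (-0.16, edgeR adjusted p = 0.1004). In all 4, picked for the smallest p, the libraries of the diets did not overlap. Over all tested genes, every low-Mn library lay above every normal-Mn library in 8.79% and below in 8.32%. Of hindbrain and midbrain markers, Th had -0.17 (edgeR adjusted p = 0.773), and none of the 3 tested had an unadjusted p under 0.05.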
